A study of Mus musculus with 6 samples.

Results

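The 10 genes described here encode the receptors, docking proteins and binding proteins of insulin-like growth factor (IGF) and insulin signalling: Igf1r, Insr, Igf2r, Irs1, Irs2, Igfbp2, Igfbp3, Igfbp4, Igfbp5 and Igfbp7. They were matched by gene symbol among the 21960 genes of the deposited counts, and all 10 were found. They were measured by RNA-Seq in TuBo cells, a mammary carcinoma line from a BALB/c-MMTV-NeuT mouse, in which the rat Neu oncogene is driven in the mammary epithelium by the MMTV promoter. The 3 mock libraries carry the genotype label wt, and the 3 p140Cap libraries come from cells that overexpress p140Cap from a pBabe-puro retrovirus after puromycin selection. p140Cap cells were pooled from clones grown from single cells, and both cell types were kept in serum-supplemented DMEM. The labels name the line Balb-NeuT, and their protocol names TuBo cells. The replicates of a group are separate samples by their labels, whose titles number the cell line within each group. Nothing says whether this numbering means separate cultures, so the p-values cover only the spread between these samples.

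Insulin and the IGFs act through a pair of closely related receptor tyrosine kinases, Insr and Igf1r, whose chains can also join into hybrid receptors. The active receptors phosphorylate the docking proteins Irs1 and Irs2, which recruit PI3K and so activate Akt, and Akt holds the FoxO transcription factors out of the nucleus. Igf2r has no kinase domain: it takes up IGF2 for degradation and carries enzymes tagged with mannose 6-phosphate to the lysosome. IGF-binding proteins (IGFBPs) bind IGFs outside the cell, and in the mammary gland Igfbp5 is best known for its rise during involution, when milk-producing cells die.

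Before the levels are given, the promoters of the docking proteins are shown, since Irs1, Irs2 and their relative Irs4 hold the same pair of motifs close together. The motifs are the E-box CACGTG, and the insulin response core CAAAACA, read on the other strand as TGTTTTG, a sequence first described in insulin-repressed promoters. The stretches are read 5′ to 3′ on the strand of the gene, from RefSeq sequence on GRCm38.p6 (mm10), and capitals mark both motifs.
Irs1 (chr1:82291536-82291563, minus strand): aggctccgtCACGTGTTTTGctcctctg
Irs2 (chr8:11008955-11008982, minus strand): acgcagagtCACGTGtTGTTTTGctctt
Irs4 (chrX:141725353-141725380, minus strand): ggcgacggtCACGTGtTGTTTTGcccac
The E-box began 115 bases before the RefSeq start site in Irs1, 44 bases before it in Irs2 and 154 bases before it in Irs4. In Irs1 the motifs share letters, while in Irs2 and Irs4 they are separated by a single t. Of 32851 promoter windows of 250 bases before a start site, 6.02% held the E-box and 5.56% the insulin response core, on either strand. Both motifs with starts at most 10 bases apart, a criterion set after these promoters had been read, were found in 7 windows (0.0213%), those of Irs1, Irs2, Irs4, Klf11, Pcbp1, Pyroxd1 and 1700019P21Rik. These matches describe letters and not the binding of any factor, and of the 3 genes Irs4 was nearly silent in TuBo cells, with 1 read in all. A further relative, Irs3, was not among the 7 matches.

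A further pair of promoters is shown because Igfbp2 and Igfbp5 are neighbours on chromosome 1, 5590 bases apart, and Igfbp5 alone of the pair was well expressed. RefSeq lists 2 start sites for Igfbp2, of which the first is shown. The bases from 250 to 51 before the start site are given, with GC boxes (GGGCGG or its reverse complement CCGCCC) and E-boxes in capitals.
Igfbp2 (chr1:72824230-72824429, plus strand): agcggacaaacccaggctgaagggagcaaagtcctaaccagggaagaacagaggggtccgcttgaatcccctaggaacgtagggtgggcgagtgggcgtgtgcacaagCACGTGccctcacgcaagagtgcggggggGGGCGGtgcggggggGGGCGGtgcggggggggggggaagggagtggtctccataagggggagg
Igfbp5 (chr1:72874916-72875115, minus strand): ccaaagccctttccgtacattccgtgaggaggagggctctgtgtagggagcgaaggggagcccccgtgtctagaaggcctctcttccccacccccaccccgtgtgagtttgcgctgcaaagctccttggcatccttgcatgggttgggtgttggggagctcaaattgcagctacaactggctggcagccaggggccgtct
Over its 250 bases the first window of Igfbp2 held 3 GC boxes, while its second window and that of Igfbp5 held 0, where 32.7% of all windows held at least 1. The GC content was 67.2% in the first and 56.4% in the second window of Igfbp2 and 58.8% in Igfbp5, against a median of 52.4% over all windows. The letters thus set Igfbp5 apart from the first start site of Igfbp2 and not from the second. Of the 10 members, 9 had a promoter in the RefSeq table, in 10 windows.

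Total reads on genes lay between 33058719 and 75506562 in the mock libraries and between 13770385 and 15364850 in the p140Cap libraries, so rare transcripts were measured with less precision in the latter. Srcin1, which encodes p140Cap, had 509 to 1192 reads in the mock and 30546 to 36989 reads in the p140Cap libraries, as the labels state. All 5 epithelial markers read as a check (Epcam, Krt8, Krt18, Cdh1 and Cldn4) were expressed, with summed levels of 4861 to 5172 reads per 1000000 reads of the library, normalized (CPM), in mock and 5834 to 5961 CPM in p140Cap cells. Of the 6 fibroblast markers, Col1a2, Col3a1, Dcn and Lum had 0 reads in all libraries, and the list summed to 9.93 to 10.5 CPM in mock and 11.3 to 14.1 CPM in p140Cap cells, from Col1a1 and Pdgfra. Of the 6 leukocyte markers, Ptprc, Cd3e and Lyz2 were among those with 0 reads, and the basal list summed to 0.340 to 0.593 CPM over all libraries. The endothelial list was at 0.150 to 0.427 CPM in mock and at 0.477 to 0.734 CPM in p140Cap cells, with Kdr at 0 reads, and the adipocyte list at 0.0901 to 0.183 CPM and 0.272 to 0.587 CPM. The part of these cells in the results below was not tested.

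Of the 10 members, 6 had enough reads for a test, and 5 of these were higher in p140Cap cells: Igfbp5 (2.64-fold), Igf1r (1.76-fold), Insr (1.43-fold), Irs2 (1.37-fold) and Irs1 (1.11-fold). Igf2r was not called, and Igfbp2, Igfbp3, Igfbp4 and Igfbp7 had too few reads. No member was lower at an adjusted p under 0.05, the threshold used throughout. Differences were widespread in this comparison: of the 11800 genes tested, 71.1% were called in either direction with 35.2% higher and 35.9% lower (quasi-likelihood test of edgeR, p-values adjusted by Benjamini-Hochberg over all genes tested). Mock and p140Cap CPM were without overlap in 5 of the 6 members tested, and in 73.4% of all genes tested. The median log2 fold change of the 6 members was 0.49, and that of all genes tested was 0.00. In RNA from many cells, more cells with a transcript and more transcript per cell cannot be told apart.

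**Figure D1:**
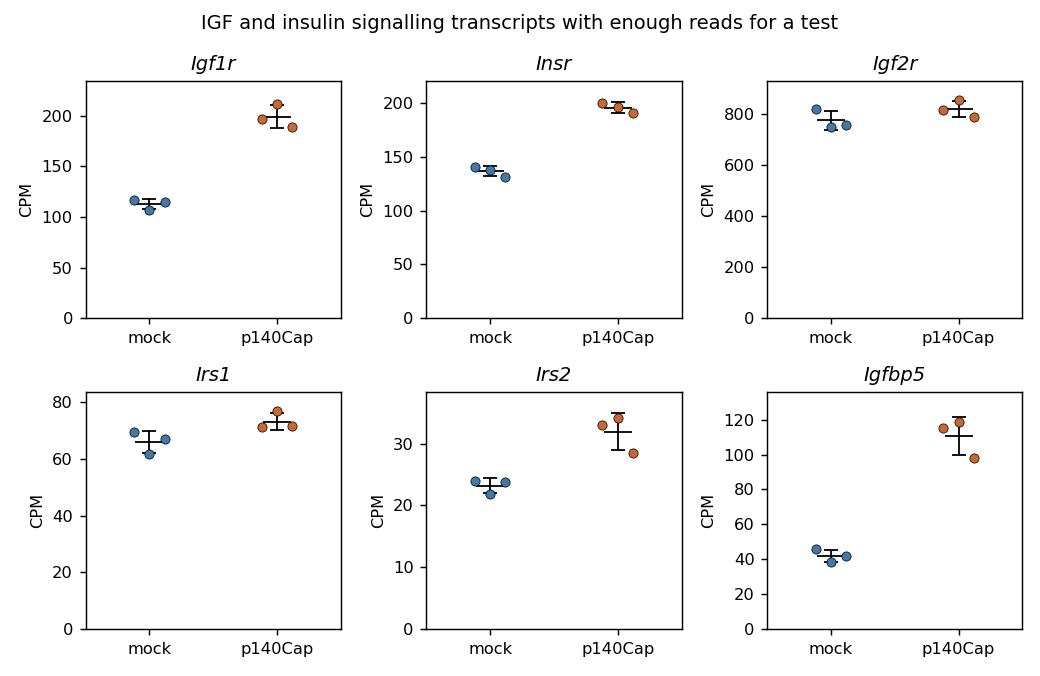
Normalized read count (CPM, linear axes from 0) of the 6 members with enough reads for a test in the 3 mock and 3 p140Cap libraries. Points are libraries, and the black bars are the mean and SD of each group. For Igf1r, Insr, Irs1, Irs2 and Igfbp5 every p140Cap library lay above every mock library, while the groups overlapped for Igf2r.

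Igf1r (ENSMUSG00000005533), the receptor of IGF1 and IGF2, spans chromosome 7 of mm10 (plus strand, bases 67952257 to 68233668). Its level was 117, 107 and 115 CPM in the mock libraries and 196, 212 and 189 CPM in the p140Cap libraries. The lowest p140Cap library was thus far above the highest mock library. The log2 fold change was 0.82 (SE 0.05 and edgeR's adjusted p = 9.2e-10), higher than that of 92.9% of the genes tested.

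Insr (ENSMUSG00000005534), the insulin receptor, lies on chromosome 8 (minus strand, bases 3150922 to 3279649). It was at 141, 138 and 131 CPM in mock cells and at 199.9, 197 and 190.3 CPM in p140Cap cells. Here too the groups were well apart, and the spread within each was small. The log2 fold change was 0.52 (SE 0.05 and edgeR's adjusted p = 4.7e-08). With the 2 receptors each expressed per kilobase of annotated exon, Insr was the more abundant in all libraries. The ratio of Igf1r to Insr was 0.579, 0.542 and 0.609 in the mock libraries and 0.685, 0.750 and 0.691 in the p140Cap libraries, so each p140Cap library was above each mock library. The means were 0.577 ± 0.033 and 0.709 ± 0.036 (SD, n = 3 each), a log2 difference of 0.30. A two-sided exact permutation test on 3 against 3 libraries gave p = 0.1, the smallest p this design allows.

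Igf2r (ENSMUSG00000023830), on chromosome 17 (minus strand, bases 12682406 to 12769706), was the most abundant member. It was at 820.1, 751 and 759 CPM in mock cells and at 815, 856 and 791 CPM in p140Cap cells, and the groups overlapped. The log2 fold change was 0.08 (SE 0.05 and edgeR's adjusted p = 0.175), and none of the 15 alternative analyses called it, with log2 fold changes between 0.04 and 0.12. The imprinted noncoding gene Airn overlaps Igf2r on the other strand and Gm65010 on the same strand.

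Irs2 (ENSMUSG00000038894) encodes the docking protein that carries much of the insulin signal in liver and beta cells, and lies on chromosome 8 (minus strand, bases 10984681 to 11008929). It was at 24.0, 21.9 and 23.7 CPM in the mock and at 33.1, 34.1 and 28.5 CPM in the p140Cap libraries. All p140Cap libraries were higher, with a wider spread among them than among the mock libraries. The log2 fold change was 0.46 (SE 0.07 and edgeR's adjusted p = 2.6e-05).

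Irs1 (ENSMUSG00000055980), the docking protein first found as the main substrate of the insulin receptor, lies on chromosome 1 (minus strand, bases 82233105 to 82291439). Its levels were 69.4, 61.9 and 67.2 CPM in mock cells and 71.2, 76.8 and 71.7 CPM in p140Cap cells. The groups were apart by less than the spread within either of them. The log2 fold change was 0.14 (SE 0.06 and edgeR's adjusted p = 0.0297), and 8 of the 15 alternative analyses called it, with adjusted p between 0.0213 and 0.148. Leaving out mock replicate 2, p140Cap replicate 2 or p140Cap replicate 3 ended the call (adjusted p = 0.146, 0.128 and 0.0511, edgeR).

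Per kilobase of exon, Irs1 exceeded Irs2 in all libraries. The ratio of Irs1 to Irs2 was 2.28, 2.23 and 2.23 in mock cells and 1.70, 1.77 and 1.98 in p140Cap cells. All p140Cap libraries were lower, with means of 2.25 ± 0.027 and 1.82 ± 0.15 (SD, n = 3 each) and a log2 difference of -0.31. A two-sided exact permutation test again gave p = 0.1, the smallest possible here.

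**Figure D2:**
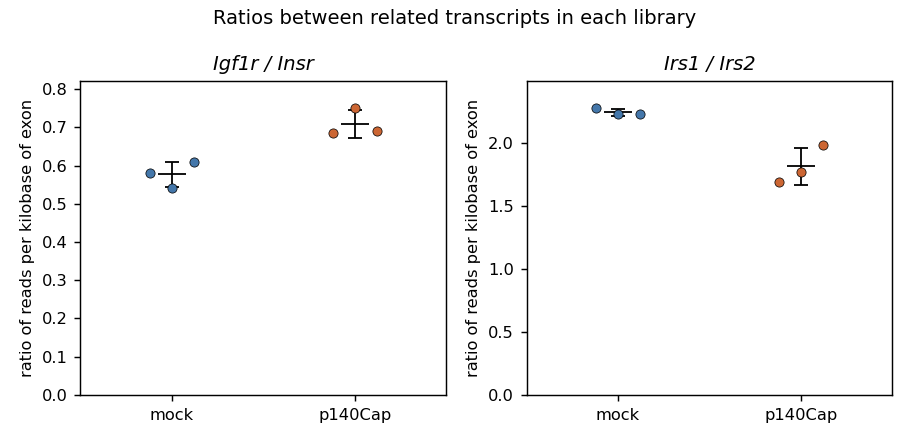
Ratio of Igf1r to Insr (left) and of Irs1 to Irs2 (right) in each library, from reads per kilobase of annotated exon, on linear axes from 0. Points are libraries and black bars are the mean and SD of each group. The Igf1r to Insr ratio was higher and the Irs1 to Irs2 ratio lower in each p140Cap library than in each mock library.

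Igfbp5 (ENSMUSG00000026185) was the sole binding protein gene among the members with enough reads for a test, and it had the largest change of all members. It lies on chromosome 1 (minus strand, bases 72858065 to 72874865), with no overlapping annotated gene. It was at 45.6, 38.3 and 41.6 CPM in the mock libraries and at 115, 119 and 98.2 CPM in the p140Cap libraries. Although the p140Cap libraries were smaller, their raw reads (1750, 1745 and 1338) were close to those of mock replicates 2 and 3 (1525 and 1385). The log2 fold change was 1.40 (SE 0.07 and edgeR's adjusted p = 6.43e-11), higher than that of 97.6% of the genes tested. It stayed between 1.34 and 1.48 in the 15 alternative analyses, which all called it.

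The other binding protein genes were close to absent. Igfbp4 (ENSMUSG00000017493; chromosome 11, 99040005 to 99052655, plus strand), an inhibitor of IGF action that the protease PAPP-A cuts, had 15, 6 and 4 reads in the mock and 2, 0 and 2 in the p140Cap libraries. Pooled by group, these 25 and 4 reads give a mock to p140Cap ratio of levels of 1.82, with a 95% exact interval from 0.627 to 7.18 (counting error alone), so no difference was detectable at this depth. Igfbp2 (ENSMUSG00000039323; chromosome 1, 72824480 to 72852474, plus strand) had 2 reads, and Igfbp3 (ENSMUSG00000020427; chromosome 11, 7206086 to 7215498, minus strand), the main carrier of IGFs in serum, had 1. Igfbp7 (ENSMUSG00000036256; chromosome 5, 77349240 to 77408045, minus strand), a secreted relative with low affinity for IGFs, had 1 read as well. All of these reads were in mock replicate 1, the deepest library. A pooled count of 0 in p140Cap cells allows a level of up to 0.069 CPM for each of them (3 reads, counting error only). Igfbp5 made up 99.4% ± 0.22 of the reads per kilobase of the 5 binding protein genes in mock cells and 99.9% ± 0.11 in p140Cap cells (SD, n = 3 each).

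**Figure D3:**
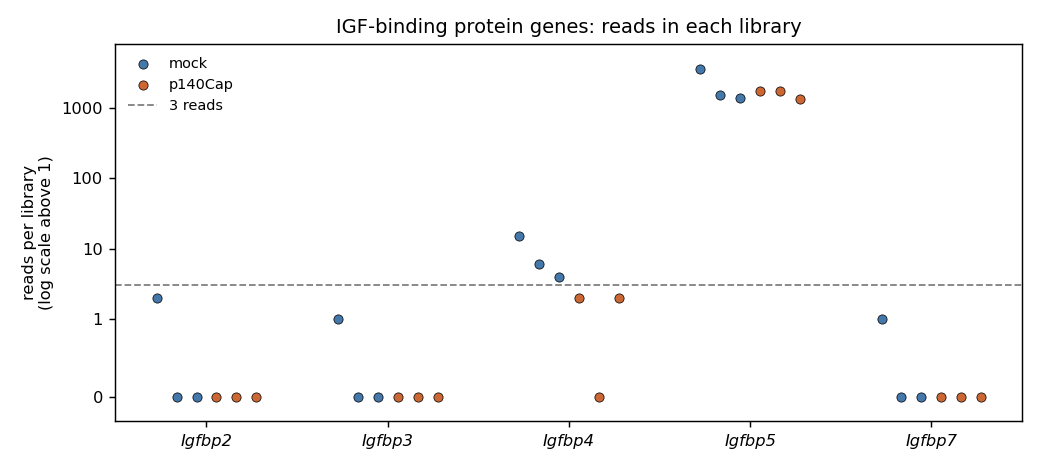
Raw reads of the 5 IGF-binding protein genes among the members in each library, on a scale that is linear below 1 and logarithmic above it. The dashed line marks 3 reads, and raw reads are not adjusted for the greater depth of the mock libraries. Igfbp5 had 1338 reads or more in each library, Igfbp4 had 15 reads or fewer, and the others had 2 reads or fewer.

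Ordered by level in mock cells, as CPM per kilobase of annotated exon (RPKM), Igf2r stood at 82.9 ± 4.0, Insr at 9.90 ± 0.34, Irs1 at 7.08 ± 0.41, Igfbp5 at 6.97 ± 0.61, Igf1r at 5.71 ± 0.26 and Irs2 at 3.15 ± 0.16 (SD, n = 3 each). Irs1 and Igfbp5 did not differ beyond their spread. Igf2r was above 97.2% of the genes tested on this scale, and Irs2 above 33.3% of them. In p140Cap cells Igfbp5 came second after Igf2r, at 18.4 ± 1.8 RPKM, ahead of Insr at 14.2 ± 0.35, Igf1r at 10.1 ± 0.59, Irs1 at 7.83 ± 0.33 and Irs2 at 4.33 ± 0.41. The place of the receptors depends on the length used. With the longest annotated transcript, Igf1r was at 8.98 RPKM in mock cells and stood above Irs1 and Igfbp5, and in p140Cap cells Insr, at 20.8 RPKM, stood above Igfbp5.

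Ligand transcripts were not detected or nearly so. Igf1, Ins1 and Ins2 had 0 reads in all libraries and Igf2 had 1, in mock replicate 1. A pooled count of 0 allows a level of up to 0.0200 CPM in mock and 0.069 CPM in p140Cap cells, in counting error alone. In the whole list of 10 ligands and insulin-like relatives 2 genes were tested. Insl6, a relaxin-like gene known from testis, was called higher, at 2.27 ± 0.30 CPM in mock and 3.09 ± 1.0 CPM in p140Cap cells (SD, n = 3 each), with a log2 fold change of 0.46 (SE 0.20 and edgeR's adjusted p = 0.0485). The call rested on p140Cap replicate 3, at 4.26 CPM, without which the log2 fold change was 0.16 (adjusted p = 0.49, edgeR), and the groups overlapped. Leaving out mock replicate 1 or mock replicate 3 also ended it (adjusted p = 0.182 and 0.0773).

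Of the 12 further genes around the binding proteins, 5 were tested, with 2 higher and 1 lower. Without mock replicate 2 there were 2 lower, and with at least 10 reads asked of every library, or with libraries thinned to the smallest total, 1 was higher and 0 were lower. Igfals, which encodes the acid-labile subunit that holds IGFs in a large serum complex, had 19, 9 and 4 reads in mock and 18, 19 and 17 reads in the smaller p140Cap libraries and was called higher (edgeR's adjusted p = 2.56e-06). Pooled, its level was 5.81 times higher in p140Cap cells (95% exact interval 3.68 to 9.29, counting error only), at 1.24 CPM. Igf2bp1, an RNA-binding protein named for the Igf2 transcript, fell from 1.75 ± 0.43 to 0.408 ± 0.16 CPM, 4.30-fold lower (log2 fold change -2.10 and edgeR's adjusted p = 3.83e-05), and Igf2bp2 rose from 1.16 ± 0.049 to 1.95 ± 0.14 CPM (SD, n = 3 each). Stc2, an inhibitor of PAPP-A, was at 72.8 ± 5.6 CPM in mock and 68.2 ± 2.8 CPM in p140Cap cells (SD, n = 3 each) and was not called (adjusted p = 0.169, edgeR). Pappa itself had 24, 10 and 6 reads in mock and 0, 1 and 1 in p140Cap libraries and was not tested.

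Among 17 adaptors and receptor regulators, 13 were tested, with 4 higher, 4 lower and a median log2 fold change of 0.08. Gab1, a docking protein that recruits PI3K and the phosphatase Shp2, rose from 61.5 ± 1.2 to 98.9 ± 8.7 CPM (SD, n = 3 each), a log2 fold change of 0.69. Its relative Gab2 was at 0.58, and Enpp1, a membrane protein that can inhibit the insulin receptor, at 0.35. The largest change of the list was that of Cav1, the caveolar protein that binds the insulin receptor, which fell from 48.5 ± 2.2 to 19.8 ± 1.5 CPM (SD, n = 3 each; log2 fold change -1.30, SE 0.07 and edgeR's adjusted p = 6.41e-11). Ptpn1, which encodes a phosphatase that acts on the insulin receptor, was lower as well, at -0.27 on the log2 scale. Grb10, an inhibitor of both receptors, had 5 reads in mock libraries and 1 in p140Cap libraries and was not tested.

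In the PI3K-Akt-mTOR list of 25 genes, 24 were tested, with 10 higher, 8 lower and a median log2 fold change of 0.04. The balance rested on single libraries and on scaling: without mock replicate 2 there were 6 higher and 8 lower, without p140Cap replicate 2 there were 6 and 9, and with library totals without factors 6 and 8. Akt1 was at 383, 371 and 413 CPM in mock and 267, 288 and 279 CPM in p140Cap libraries, a log2 fold change of -0.49 (SE 0.05 and edgeR's adjusted p = 3.47e-07) with no overlap. Akt2 was called higher at a log2 fold change of 0.11 (edgeR's adjusted p = 0.0366), a call that was kept in 6 of the 15 alternative analyses. It was lost on leaving out mock replicate 1 or 2 or any p140Cap replicate (adjusted p between 0.0645 and 0.132, edgeR). Deptor, an inhibitor bound to mTOR, had the largest change of the list, from 77.4 ± 2.9 to 176 ± 5.0 CPM (SD, n = 3 each; log2 fold change 1.19), followed by Phlpp2, an Akt phosphatase, at -0.72, and Rictor, the defining subunit of mTORC2, at 0.56.

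The list of FoxO factors and genes known as their targets was read last of the signalling lists. It holds 14 genes, of which Foxo6 and Pdk4 had too few reads for a test. All of its 12 tested genes were higher in p140Cap cells, against 35.2% of all genes tested, and their median log2 fold change was 0.62. Each of the 15 alternative analyses, which use these same libraries, called all 12 higher. The list was chosen with earlier results of these data known, so this count is no independent check. Foxo3 was at 89.9, 82.6 and 93.0 CPM in mock and 160.0, 168 and 152 CPM in p140Cap libraries, a log2 fold change of 0.86 (SE 0.05 and edgeR's adjusted p = 7.12e-10). Foxo4 was at 0.70 and Foxo1 at 0.61 on the same scale, and the groups were apart for all 3 factors. Among the targets, Txnip, an inhibitor of thioredoxin and of glucose uptake, rose from 44.8 ± 4.8 to 161 ± 7.4 CPM and Pik3ip1, a membrane inhibitor of PI3K, from 12.2 ± 0.53 to 40.9 ± 0.49 CPM (SD, n = 3 each). Their log2 fold changes were 1.85 and 1.75 (adjusted p = 1.06e-12 and 1.23e-12, edgeR). The cyclin-like gene Ccng2 was at 0.73, the proapoptotic gene Bcl2l11 at 0.63, the CDK inhibitor gene Cdkn1b at 0.37 and Sesn3 at 0.21. Insr and Irs2, described above, are also known as FoxO targets. Several of the listed genes are known to answer to other regulators too, such as Gadd45a and Sesn1 to p53 and Txnip to glucose through MondoA, and which regulator acted here was not tested. The letters GTAAACA or TGTTTAC, to which FoxO factors bind, were found in 2 of the 14 promoter windows that RefSeq gave for the list, 1 of Txnip and 1 of Bcl2l11, in 0 of the 10 windows of the members and in 3.17% of all windows. Those 14 windows belong to 12 genes, which include the untested Pdk4 and not Foxo4 or Foxo6. The insulin response core shown above was counted apart from GTAAACA. It was found in windows of Irs1 and Irs2 among the members, of Ccng2 in the list and in 5.56% of all windows.

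**Figure D4:**
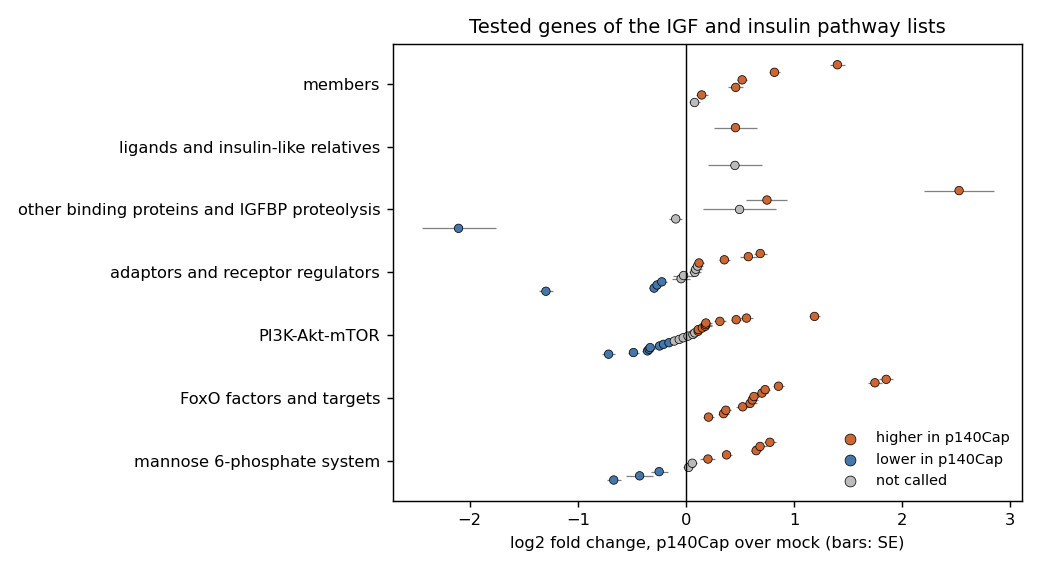
Log2 fold change of p140Cap over mock for the tested genes among the members and in each of the 6 pathway lists, with SE as horizontal bars. Each point is a gene, coloured by whether edgeR called it higher, lower or neither at an adjusted p under 0.05. All 12 tested FoxO factors and targets lay to the right of 0, while the PI3K-Akt-mTOR genes lay on both sides.

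The mannose 6-phosphate system, which Igf2r serves, was read beside it. All 10 genes were tested, with 5 higher, 3 lower and a median log2 fold change of 0.13. M6pr, the other mannose 6-phosphate receptor, was at 194 ± 2.9 CPM in mock and 202 ± 6.1 CPM in p140Cap cells (SD, n = 3 each) and was not called, like Igf2r (adjusted p = 0.265, edgeR). Genes of lysosomal cargo went both ways. Psap, Grn, Ctsb and Ctsl were higher, with Psap, the precursor of the saposins, going from 1029.5 ± 29.8 to 1762 ± 112 CPM (SD, n = 3 each; log2 fold change 0.78), Grn at 0.68 and the protease gene Ctsb at 0.65. The protease gene Lgmn was lower, from 14.6 ± 0.46 to 12.2 ± 0.73 CPM (SD, n = 3 each), at -0.25 on the log2 scale (edgeR's adjusted p = 0.00943). Ctsd, a further cargo protease, was at 0.02 and not called (adjusted p = 0.672, edgeR). Gnptab, a subunit of the enzyme that adds the tag, fell by 0.67 on the log2 scale (SE 0.07 and edgeR's adjusted p = 1.32e-07). Gnptg, which encodes another subunit of the same enzyme, was called higher, at 0.20 on that scale (edgeR's adjusted p = 0.0158).

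Gm73244 overlaps Igf1r on the same strand, and genes on the other strand overlap Igf1r, Insr, Igf2r, Irs1, Irs2, Igfbp3 and Igfbp7 in the GENCODE annotation. The kit kept the strand by the study's methods, but no source used here says whether reads were counted by strand.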

How the data were processed

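The RNA-Seq libraries, 3 of mock and 3 of p140Cap TuBo cells, were grouped by their labels. The authors deposited counts, whole numbers of reads per gene without normalization, with replicates kept apart. The submitters' processing notes name STAR 2.5, RSEM and the build mm10, and the paper names docker4seq and GRCm39. The labels name poly(A) selection and the paper a stranded TruSeq kit.

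In R 4.3.3, counts were scaled with TMM factors, filtered with filterByExpr and tested over the 11800 genes kept in edgeR 4.0.16 by quasi-likelihood, with condition alone in the model, a threshold of 0.05 and Benjamini-Hochberg adjustment. CPM used TMM-adjusted totals, and SE was taken as the size of the log2 fold change over the root of F. The script was tested on simulated counts. Exon lengths (matched for 99.6% of tested genes) and overlaps came from GENCODE M39 on GRCm39. Positions and promoters came from RefSeq on GRCm38.p6, which is mm10.

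Members, pathway lists, marker lists and tests were chosen with earlier results of these data known. Genes named are the members, Srcin1, the ligand genes Igf1, Igf2, Ins1 and Ins2, Akt1, Akt2, Foxo1, Foxo3, Grb10 and, in each list, the called genes that changed most, at most 4, given a mean log2 CPM of at least 1. Others were named after their values were seen, and some genes of the rule are not reported here. Alternatives were DESeq2 1.42.0, limma-voom (limma 3.58.1), RLE, upper-quartile or no factors, no filter, at least 10 reads in every library, leaving out each library, a replicate block, thinning to the smallest total and, for levels, the longest transcript.

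Totals were between 13770385 and 75506562 reads, and the common coefficient of biological variation was 4.57%. Libraries of the same group differed by more than sampling noise, with a mean chi-square between 1.75 and 10.7 where noise gives 1.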

Additional observations from a re-analysis of the deposited data

How the results depend on the processing

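The calls of Igf1r, Insr, Irs2 and Igfbp5 held in all 15 alternatives, and that of Irs1 in 8. Of 420 log2 fold changes of 28 named genes under the alternatives, 386 kept their direction and call, 34 kept the direction but lost the call, and 0 changed sign. Irs1 was not called with library totals without factors, no filter on low counts, thinned libraries, a replicate block or without 3 of the libraries. The count of called members was 4 or 5 throughout. All genes called numbered between 7165 and 8716. Among ligands and relatives, the 1 call, of Insl6, was lost (0 calls) with DESeq2, limma-voom, library totals without factors, thinned libraries and a replicate block, and the count lay between 0 and 2 without single libraries. In the list around the binding proteins, calls fell to 1, with 1 higher and 0 lower, both with at least 10 reads in every library and with thinned libraries, filters or depths that drop genes with few reads. Lower calls there rose to 2 without a filter on low counts, and lay between 1 and 2 without single libraries. Higher calls in the PI3K-Akt-mTOR list were 6 with library totals without factors and between 6 and 9 without single libraries. The causes were otherwise not tested. The Igf1r to Insr difference lay between 0.25 and 0.34 and that of Irs1 to Irs2 between -0.37 and -0.26 (log2) without single libraries. Gene length cancels from both differences, so the longest transcript is no test of them. Igfbp2, Igfbp3, Igfbp4 and Igfbp7 were tested only without a filter on low counts, and none was called. At this depth a pooled count of 0 in p140Cap cells allows levels of up to 0.069 CPM.

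Same-numbered libraries did not deviate together (correlations between -0.106 and -0.0299), so no pairing by number was seen. With so few libraries in each group this check cannot exclude a pairing. A replicate block gave 8034 called genes in all, 4 called members and 12 called FoxO genes.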
